A study of Oryza sativa with 6 samples.

Results

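The 3 arrays described here measured transcripts in young leaves of untransformed Minghui63, an indica rice variety, at 11 days of age. They were chosen by their titles, which mark them as the controls, and are 3 of the 6 arrays in the series. The other 3, from Minghui63 transformed to silence OsSRT1 by RNA interference, were not used here. The controls carried no transgene. The label of control 2 gives growth in 1/2MS medium under 16 h of light and 8 h of dark at 25 °C. The design text calls the arrays biological repeats, but how many plants went into each is not stated, so the spread between arrays may be partly technical. A whole young leaf mixes many cell types, and in such a sample fewer cells of a type and less RNA per cell cannot be told apart.

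A young rice leaf is a photosynthetic organ in which Rubisco fixes carbon dioxide, the photosystems and their light-harvesting antennae capture light, and photorespiration recycles the product of Rubisco's reaction with oxygen. Its chloroplasts are assembled while chlorophyll is being made. Genes for seed storage, flower organs and cell division are known for activity in other organs or in meristems.

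Each array was multiplied to a trimmed mean signal of 500. A gene's signal is the value of its probe set of highest mean signal, where a probe set is a group of short probes. Some probe sets are of a kind that can read several genes, so a signal need not come from 1 gene alone. Probes differ in how strongly they bind, so an order of signals is not an order of transcript amounts. The floor is the 95th percentile of 64 probe sets that the array names as reporters, and stood at a scaled signal of 40.2, 56.2 and 37.1 in arrays 1, 2 and 3. Of 17905 annotated genes, 13922 (77.8%) were above the floor in all 3 arrays and 2213 (12.4%) were at or below it in all 3. The median gene had a mean signal of 553. The tables give 2453 of the genes a proper name beside locus and clone numbers. Of these named genes, 2030 (82.8%) were above the floor in all 3 arrays and 238 (9.70%) were at or below it in all 3, and the median was 1013. The span of a gene is the difference between its highest and lowest array in log2(signal + 16), so a span of 1 is about a 2-fold difference. Signals of at least 10000 in all 3 arrays, called high here, were found for 479 annotated genes (2.68%) and 159 named genes (6.48%). Pearson correlations between pairs of arrays, taken over 57194 plant probe sets on that log2 scale, ran from 0.968 to 0.969; the arrays share variety, tissue and array type.

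The highest named signals belonged to genes of photosynthesis. Of the 20 named genes of highest mean signal, 12 were in the photosynthesis list, and all 20 were above the 99th percentile of annotated genes. For 6 of the 20 (RBCS-C, ALDP, CAB2R, ADI1, JAZ6 and atpI) the probe set can read several genes. The gene rca, for Rubisco activase, which clears inhibitors from Rubisco, gave 37955, 44136 and 34825 in arrays 1, 2 and 3. RBCS-C, a small subunit of Rubisco, gave 37050, 37129 and 31273. For RCABP89, a chlorophyll a/b-binding antenna protein, the values were 39940, 37334 and 35505. These values lay between 31273 and 44136, and the ranges of the 3 genes overlapped. CAB2R, a further antenna protein, averaged 34337 ± 3225 (SD, n = 3), and LIR1, a light-induced chloroplast protein, 38022 ± 2644. OEE3, an oxygen-evolving enhancer protein of photosystem II, averaged 34923 ± 2411.

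Electron carriers and other photosynthesis genes were also among the 20. ADI1, a ferredoxin gene, averaged 33651 ± 2451, petC, the Rieske iron-sulphur protein of the cytochrome b6f complex, 26647 ± 1213, and PSAH, a subunit of photosystem I, 31422 ± 1335. The plastocyanin gene PETE was the steadiest of the 20, with 25783, 25595 and 25371 and a span of 0.02. ALDP, an aldolase of the chloroplast, averaged 34540 ± 2901, and atpI, a chloroplast-encoded subunit of the ATP synthase, 31040 ± 1143. Spans over all 20 ran from 0.02 to 0.39.

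The remaining 8 of the 20 were not photosynthesis genes. BIPP2C1, a type 2C protein phosphatase, had the highest mean of all named genes, with 40468, 41305 and 35973. A second probe set of the same gene gave 1684, 1662 and 1983, so this rank rests on 1 probe set. GOS2, a translation initiation factor often used as a rice reference, averaged 33193 ± 2621, and JAZ6, a repressor of jasmonate signalling, 31604 ± 4666. RPP13-1, a thioredoxin h known from phloem sap, averaged 28490 ± 2735, MT2C, a metallothionein, 26323 ± 2311, and SAP8, a zinc-finger stress-associated protein, 25252 ± 1393. ARF and pinA averaged 32873 ± 1518 and 25979 ± 1653.

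**Figure D1:**
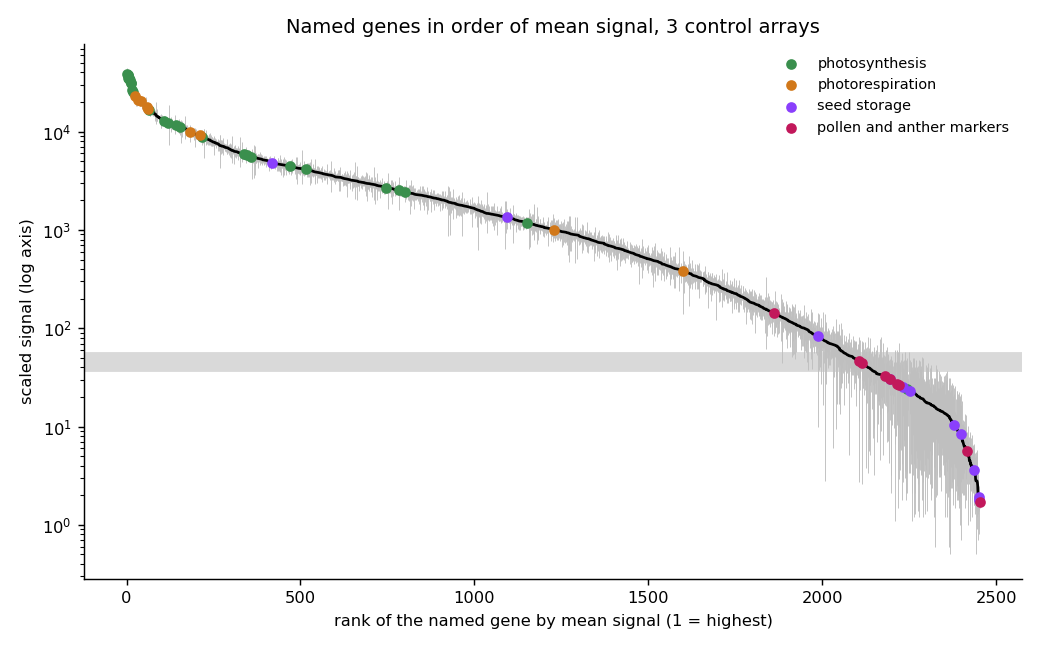
Mean scaled signal (log axis) of the 2453 named genes in order of rank, with grey lines from the lowest to the highest of the 3 control arrays and a grey band spanning the 3 floors. Photosynthesis (28 genes) and photorespiration genes (9) crowd the top, and seed storage (11) and anther genes (9) sit mostly in or under the band, where the grey lines are longest.

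Of 28 photosynthesis genes, 27 (96.4%) were above the floor in all 3 arrays and 16 (57.1%) were high. Over all named genes the shares were 82.8% and 6.48%. The median signal was 12584, against 553 for all annotated and 1013 for all named genes. The member at the other end was RBCS-A, a second Rubisco small subunit, with 11.8, 19.3 and 41.3, so only array 3 passed its floor. The probe set of RBCS-A and that of RBCS-C thus lay at opposite ends of the same array. The RBCS-C probe set is of the kind that can read several genes, so its signal may not be that of RBCS-C alone. Among the 4 probe sets of RBCS-C, the next highest gave 4298, 3319 and 3264 and the lowest 4.4, 2.8 and 5.6. A low value on 1 probe set thus need not mean a low transcript, and the contrast between the 2 genes rests on 1 probe set of each. Among those above the floor in all 3 arrays, PSB28, a photosystem II protein, had the widest span, 0.54.

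All 9 photorespiration genes were above the floor in every array and 5 (55.6%) were high, against 82.8% and 6.48% of all named genes. GLO1, a glycolate oxidase of the peroxisome, gave 24388, 24514 and 21000, and the glycolate oxidase gene listed as GOX 3 gave 16945, 17681 and 16186. GLO3 was the lowest member with 353, 409 and 393, and GLO4 gave 1002, 1039 and 980. On the highest probe set of each gene, the ranges of these 4 paralogues did not overlap. A second probe set of GLO1 gave 3233, 3497 and 3316, and the lowest of GOX 3 gave 115, 123 and 237. The order thus depends on the probe set taken. GLN2, the plastid glutamine synthetase that recaptures photorespiratory ammonium, averaged 21086 ± 1793, and Fd-GOGAT, its ferredoxin-dependent partner, 20424 ± 1544. GDCSH, the H protein of glycine decarboxylase, had the widest span, 0.37.

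Chlorophyll synthesis genes were spread more widely. Of 17, 16 (94.1%) were above the floor in all arrays and 2 (11.8%) were high by this measure, against 82.8% and 6.48% of all named genes. The median was 4154. GluTR, the glutamyl-tRNA reductase that starts tetrapyrrole synthesis, gave the highest values, with 16274, 14437 and 14467. GLK2, a transcription factor of chloroplast development, averaged 12469 ± 1007, and its paralogue GLK1 4677 ± 214. The other probe sets of GLK2 were all below GLK1, the next highest with 2267, 2832 and 2497. The place of GLK2 over GLK1 thus rests on 1 probe set. CHLH and CHLD, subunits of magnesium chelatase, averaged 8690 ± 1804 and 1472 ± 313. The probe set of CHLI, the remaining subunit, was the lowest of the list, with 56.8, 47.5 and 56.4.

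**Figure D2:**
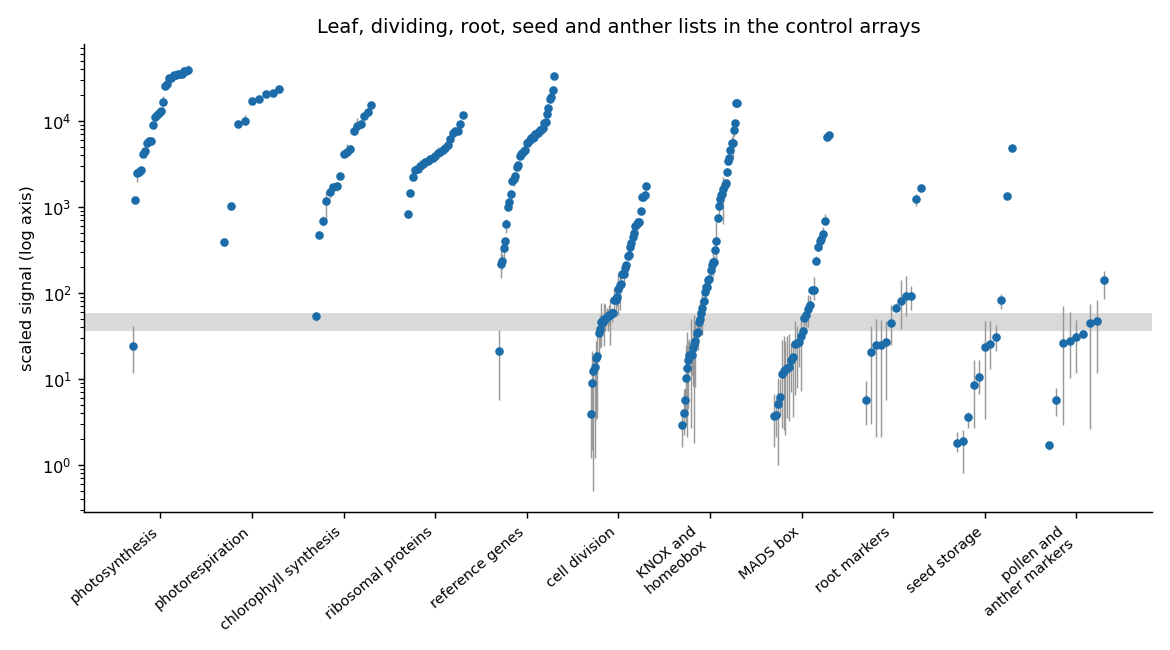
Mean scaled signal (log axis) of each gene in 11 lists, with vertical lines from the lowest to the highest control array and a grey band spanning the 3 floors. The photosynthesis and photorespiration lists reach above 10000, while most seed storage and anther genes lie in or below the band.

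The leaf label was set against markers of other tissues. Of 11 seed storage genes, 3 were above the floor in all 3 arrays and 7 were at or below it in all 3, with a median of 23. GLUD1, a glutelin, was the lowest with 1.6, 2.4 and 1.4, and the prolamin gene gave 2.7, 6.0 and 16.5. The exceptions were GLB1 with 4853, 4946 and 4769 and GLUA2, listed as a glutelin, with 1437, 1243 and 1366, both steady over the arrays. A further probe set of GLUA2 gave 30.7, 64.9 and 35.5, and both genes were placed in the seed storage list by symbol alone. RAG2, a seed allergen, gave 96.3, 85.7 and 65.4. Of 9 pollen and anther markers, 1 was above the floor in all arrays, MSP1, a receptor kinase of early anther cells, with 177, 84.3 and 165. The lowest was RTS, a tapetum gene, with 1.8, 1.5 and 1.7.

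Root markers were mostly low: 5 of 12 were above the floor in all arrays and the median was 56. Lsi1, a silicon influx channel of the root, was the exception with 1573, 1794 and 1600, and Lsi2, the silicon efflux transporter, was at 2.9, 9.5 and 4.8. NAAT1, an enzyme of phytosiderophore synthesis, averaged 1242 ± 203. The sodium transporter HKT1.5 gave 26.7, 55.6 and 43.9. Within the seed storage, anther and root lists, GLB1, GLUA2, Lsi1 and NAAT1 were thus the ones with signals above 1000 in every array. Of the starch genes also used as seed markers, SBE, a branching enzyme, gave 3147, 3329 and 3645, and GBSS1 gave 378, 403 and 368. Other probe sets of both genes ran lower, down to 12.9, 10.9 and 8.9 for SBE and 1.8, 5.3 and 3.9 for GBSS1.

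Cell division genes were low as a group, with a median of 111, and 25 of 43 were above the floor in all 3 arrays. KRP1, an inhibitor of cyclin-dependent kinases, was the highest with 1798, 1677 and 1704. PCNA, the sliding clamp of DNA replication, averaged 596 ± 33. CYCB2-2, a mitotic cyclin, was the lowest with 1.2, 2.1 and 8.2, and CDKB2-1, a mitotic kinase, averaged 89.4 ± 16.7. CYCA3-2, a cyclin, had the widest span of those above the floor, with 55.1, 167 and 113. Of 6 histone genes, all were above the floor, from H2B.5 with 4534, 5168 and 6191 to the centromeric CenH3 with 65.2, 104 and 63.9.

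Developmental regulators split within their families. Of 48 KNOX and homeobox genes, 30 were above the floor in all arrays and 10 at or below it in all. HOS59 was the highest with 17169, 14902 and 16272, and hox14 the lowest with 1.6, 4.4 and 2.7. The meristem gene OSH1 gave 34.7, 3.5 and 2.1, at or below the floor in every array. Of 30 MADS box genes, 13 were above the floor in all arrays and 13 at or below it in all, with a median of 34. MADS56, a flowering-time gene, gave 6998, 6581 and 6872, and MADS22 gave 5875, 6563 and 7156. MADS16, a floral organ gene, gave 828, 619 and 625. MADS33 was the lowest with 2.8, 1.6 and 6.7. The florigen gene Hd3a was also at or below the floor, with 21.3, 6.9 and 6.6.

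Families with paralogues at both ends of the range were described member by member. The 10 families named in the plot of families hold 60 genes, of which 51 were above the floor in all arrays and 4 at or below it in all. Of all named genes, 82.8% were above the floor and 9.70% at or below it in all 3 arrays. Of the 50 pairs of neighbours in signal order within a family, 14 had ranges over the 3 arrays that overlapped. This order is that of each gene's highest probe set.

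Sucrose synthases, which cleave sucrose to feed wall and starch synthesis, ranged from SUS4 with 11271, 10948 and 13289 to SUS3 with 13.4, 8.6 and 20.6. Sus2 averaged 7583 ± 310 and SUS1 1249 ± 101. SUS6 and SUS5 averaged 341 ± 104 and 332 ± 77 and overlapped. SUS6 varied most, with 455, 317 and 251. Among starch synthases, SSII-2 averaged 2300 ± 127, SSII-1 559 ± 108, SSI 443 ± 4 and GBSS1, the granule-bound enzyme, 383 ± 18. SSII-3, the form known from rice endosperm, was at or below the floor in all arrays with 32.2, 51.9 and 35.2.

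In the wider sucrose and starch list, 43 of 54 genes (79.6%) were above the floor in all arrays and 10 (18.5%) at or below it in all. Among all named genes these shares were 82.8% and 9.70%. The median of the list was 991. The lowest was AMY1.1, an alpha-amylase gene, with 2.5, 5.5 and 0.4. None of the 43 had a span of at least 1, where the share over all genes above the floor was 3.37% (469 of 13922) and over named ones 3.65% (74 of 2030).

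On the highest probe set of each gene, the glutamine synthetases kept a fixed order in every array. A second probe set of GLN2 gave 159, 126 and 151, so the place of GLN2 rests on 1 probe set. GLN2 stood above GLN1-1, a cytosolic form, which averaged 8807 ± 68, and GLN1-2 with 4135, 4125 and 4160. GLN1-3 was far lower, with 145, 94.2 and 113, and varied most, by a span of 0.55. Among 24 nitrogen genes, 17 (70.8%) were above the floor in all arrays, against 82.8% of all named genes. The highest was NIA1, a nitrate reductase, with 20176, 18802 and 17993. NRT2.2, a nitrate transporter, was the lowest with 3.2, 37.6 and 50.4. Of the 17, DUR3, a urea transporter, had the widest span, from 69.1 in array 1 to 175 in array 2.

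Both catalases matched here by name, which remove hydrogen peroxide, were high or nearly so: CAT-A averaged 17764 ± 792 and CAT-B 9176 ± 737. PORB, a light-dependent enzyme of chlorophyll synthesis, gave 5289, 3819 and 3972, and its paralogue PORA 1486, 674 and 1329. The PORA span of 1.12 was the widest of the chlorophyll list, with array 2 the low one. All 19 antioxidant genes were above the floor in all arrays. APX2, an ascorbate peroxidase, was the highest with 15098, 15428 and 14983, and APX5 the lowest with 80.3, 81.5 and 117.

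**Figure D3:**
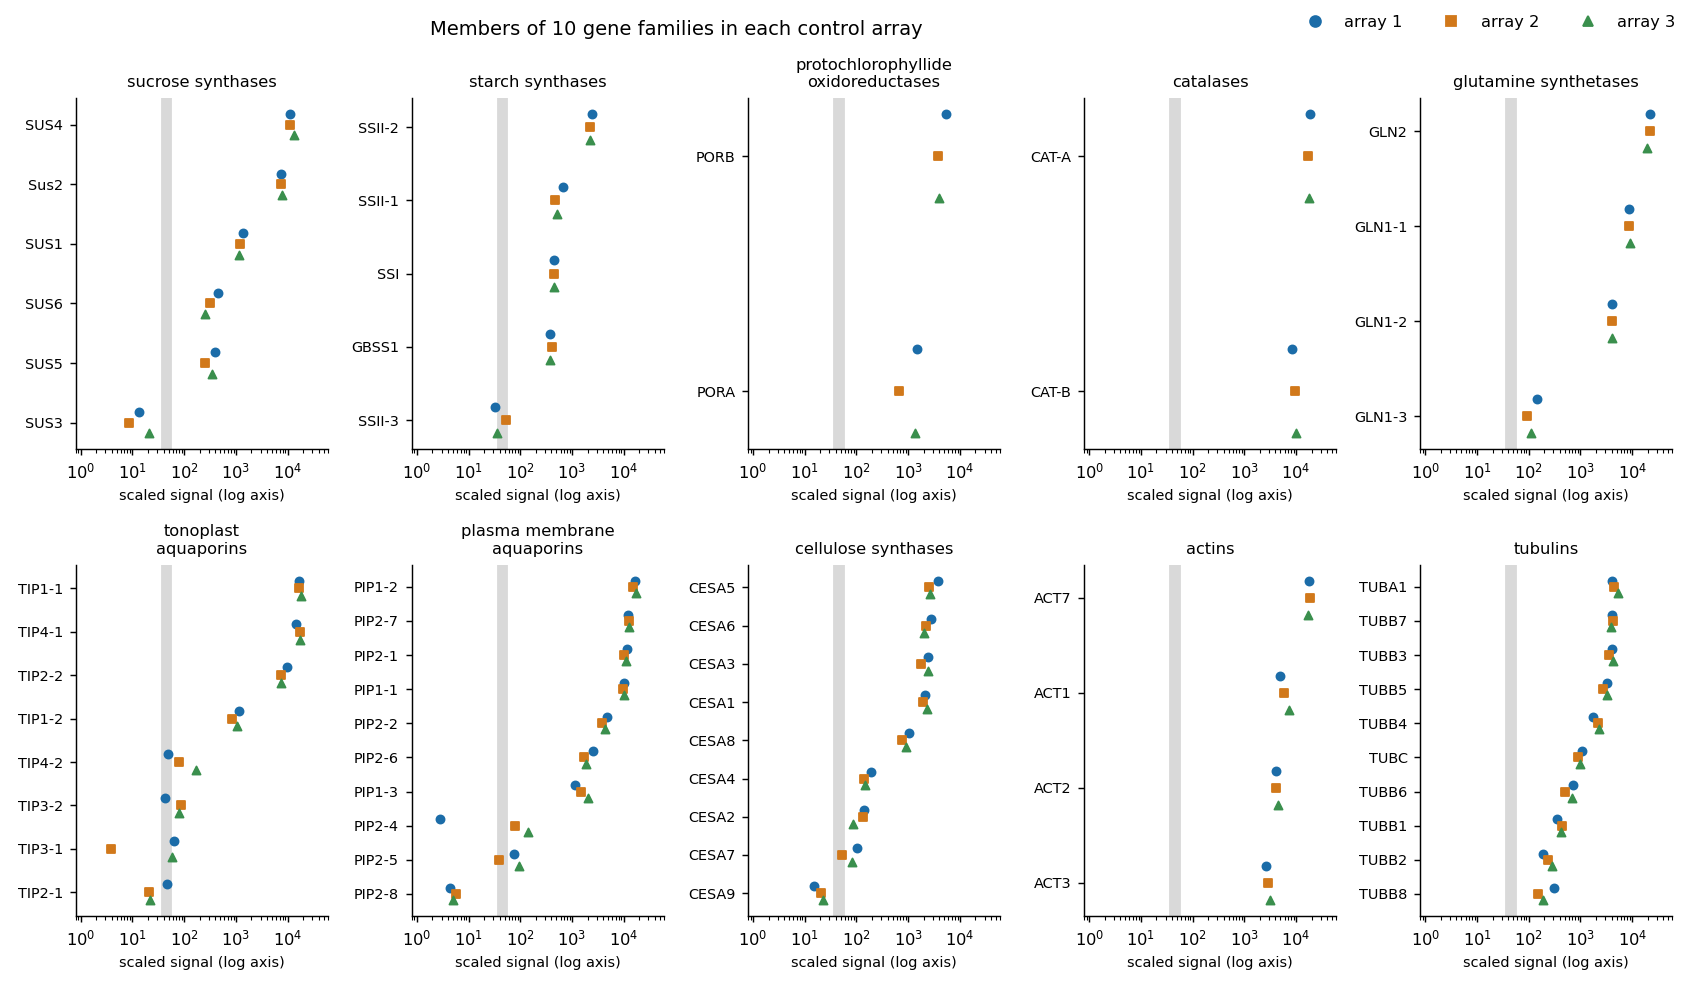
Scaled signal (log axis) of each member of 10 gene families in control arrays 1 (circles), 2 (squares) and 3 (triangles), with a grey band spanning the 3 floors. Members lie at both ends of the range within a family: PIP2-8 is at 4.3 to 5.7 and PIP1-2 at 15333 to 16991, while all 4 actins and all tubulins are above the band.

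Aquaporins are membrane channels for water. The tonoplast forms TIP1-1 and TIP4-1 averaged 16848 ± 824 and 16513 ± 1711, with overlapping ranges. TIP2-2 averaged 8235 ± 1322 and TIP1-2 1010 ± 165. TIP4-2 was near the floor, with 49.7, 78.2 and 172, and had the widest span, 1.51, of the aquaporins above the floor in all arrays. TIP3-2 gave 42.8, 87.8 and 79.3, and TIP3-1 and TIP2-1 were mixed, above the floor in some arrays only. Among plasma membrane forms, PIP1-2, PIP2-7, PIP2-1 and PIP1-1 averaged 16341 ± 885, 12458 ± 378, 10865 ± 515 and 9970 ± 195. PIP2-2, PIP2-6 and PIP1-3 averaged 4259 ± 445, 2011 ± 441 and 1560 ± 424, and PIP1-3 varied most of the plasma membrane forms above the floor in all arrays, with 1157, 1523 and 2002. PIP2-4 and PIP2-5 were mixed, and PIP2-8 was at 4.3, 5.7 and 5.1. Of 25 aquaporin genes in all, 18 were above the floor in all arrays and 5 were high.

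Cellulose synthases, the enzymes of wall cellulose, ranged down to the floor. The forms known from primary walls, CESA5, CESA6, CESA3, CESA1 and CESA8, averaged 2985 ± 695, 2358 ± 397, 2216 ± 415, 2136 ± 169 and 905 ± 140, and among the first 4 each overlapped the next in this order. The forms known from secondary walls had lower signals: CESA4 gave 193, 142 and 145, CESA7 gave 104, 52.7 and 82.7, and CESA9, at or below the floor in every array, gave 15.4, 20.3 and 22.1. CESA2 gave 138, 136 and 86.0. These are values of each gene's highest probe set. A second probe set of CESA1 gave 49.4, 93.4 and 16.3, below CESA4, and one of CESA3 gave 406, 330 and 344. The contrast between wall types thus holds for the highest probe sets only. Expansins, which loosen walls, were also spread, with 16 of 29 above the floor in all arrays and 9 at or below it in all. EXLA1 was the highest with 5871, 6780 and 6634 and EXP32 the lowest with 2.2, 3.3 and 2.0.

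The actin and tubulin genes, often taken as steady references, were all above the floor. ACT7 gave 17441, 18365 and 17122, and ACT1, ACT2 and ACT3 averaged 6007 ± 1097, 4202 ± 225 and 2866 ± 222. ACT1 varied most, with 4991, 5861 and 7171, on a probe set of the kind that can read several genes. A second probe set of ACT1 gave 1530, 1439 and 1648, a narrower spread. TUBA1, an alpha-tubulin, averaged 4568 ± 591, followed by the beta-tubulins TUBB7, TUBB3, TUBB5 and TUBB4 with 4079 ± 154, 3932 ± 346, 3088 ± 299 and 2092 ± 304. TUBC, also listed as TUBG2, averaged 995 ± 90, and TUBB6, TUBB1 and TUBB2 636 ± 123, 402 ± 42 and 234 ± 45. TUBB8 was the lowest and the most variable tubulin, with 311, 148 and 190. Of 39 reference genes, 38 were above the floor in all arrays and the exception, GAPC2, was at 36.5, 5.7 and 21.5. GAPC1, its paralogue in glycolysis, gave 21620, 25280 and 21957. All 23 ribosomal protein genes were above the floor, from RPS21 with 10909, 11866 and 11760 to RPS10-1 with 840, 900 and 733.

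Signalling genes for jasmonate, the wound and defence hormone, included several of high signal. Of 36 jasmonate genes, 31 (86.1%) were above the floor in all arrays, against 82.8% of all named genes. High signals were found for 8 (22.2%), against 6.48% of named genes. The JAZ repressors, chosen for description after their values were seen, held 6 of those 8. JAZ7 gave 23938, 24681 and 22837, JAZ1 gave 23361, 24455 and 23476, and JAZ10 gave 22711, 16651 and 15285. JAZ4 and JAZ12 averaged 12176 ± 624 and 12068 ± 1933. Of 13 JAZ genes, 12 were above the floor in all arrays, and JAZ2 was the lowest jasmonate gene with 3.9, 3.0 and 5.0. Enzymes upstream included AOC3, an allene oxide cyclase, with 18176, 17939 and 17481. LOX1.1, a lipoxygenase, had the widest span of the 31.

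Among other regulators, WRKY71, a defence factor, gave 20069, 12852 and 12061, and NAC076 was the lowest of the 14 WRKY and NAC genes with 5.8, 48.0 and 24.2. DREB1B, a factor of cold response, gave 6579, 3120 and 2923, and DREB1C was at or below the floor with 38.8, 6.9 and 6.2. DREB1G gave 4896, 2529 and 2083, the widest span of the 8 DREB genes that was above the floor. PRR95, a pseudo-response regulator of the clock, gave 18180, 21756 and 25980, the highest of the 16 clock and photoreceptor genes. Ethylene genes ran from EIL1A, a transcription factor of the pathway, with 20310, 19604 and 19555 to the receptor gene ETR4 with 5.5, 21.4 and 4.2. Gibberellin genes ran from gid1, the receptor, with 5716, 5975 and 6001 to EUI, a gibberellin-inactivating enzyme, with 5.1, 10.8 and 26.5.

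Stress proteins and transporters covered the whole range. PBZ1, a pathogenesis-related protein, gave 21335, 22758 and 18704, and the chitinase gene Cht1 gave 2.2, 1.9 and 1.5. Of 45 heat shock genes, 35 (77.8%) were above the floor in all arrays, against 77.8% of annotated and 82.8% of named genes. The list ran from HSP81-3, a cytosolic chaperone, with 20160, 17132 and 21970 to HS1 with 5.4, 1.7 and 2.7. HAK5, a potassium transporter, gave 23864, 25226 and 20900, while HAK26 gave 2.9, 10.6 and 7.7. All 12 metallothionein and lipid transfer genes were above the floor, and LTP-2 was the lowest with 120, 144 and 132.

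The middle of the order was held by regulators and enzymes of many kinds. The 10 named genes nearest the median of 1013 had means from 1007 to 1021. They included GRXS2, a glutaredoxin, with 1452, 829 and 759, and PRXIIE-2, a peroxiredoxin, with 1330, 896 and 823. Both were higher in array 1 than in the other arrays. FIL2, a YABBY leaf-polarity factor, gave 1065, 926 and 1055, and RLA1, an AP2-type factor of brassinosteroid signalling, gave 1145, 882 and 1035. HAP3I, a subunit of a CCAAT-binding factor, averaged 1008 ± 263, and OsSAP17 and OsC3H24, zinc-finger proteins, 1018 ± 169 and 1019 ± 215. GLO4, TIP1-2 and DJB6, a DnaJ-type chaperone of the endoplasmic reticulum, completed the 10, and DJB6 was among the steadiest with 1005, 1034 and 1026.

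Differences between the 3 arrays were small for most genes. The median span of the 13922 genes above the floor was 0.29, and 469 of them (3.37%) spanned at least 1. That share was 8.74% of 2230 genes with mean signal under 200, 3.97% of 4710 from 200 to 1000, 1.42% of 5352 from 1000 to 5000 and 0.177% of 565 at or above 10000. Array 1 stood apart from the other pair in 215 of the 469 genes, array 3 in 162 and array 2 in 92. Without array 1 the count was 149 genes, without array 3 168 and without array 2 320, over 2 arrays each.

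Among named genes above the floor in all 3 arrays, the 12 of widest span covered defence, clock, transport and signalling. KSL4, a diterpene synthase of phytoalexin synthesis, gave 61.7, 77.6 and 332, so array 3 was the high one. PCL1, a component of the circadian clock, gave 141, 398 and 614. HOX24, a homeodomain-leucine zipper factor, gave 623, 2205 and 1942. In PCL1 and HOX24 array 1 was the low one, and the same held for TPP9, a trehalose-6-phosphate phosphatase, with 860, 2105 and 2797 and for the potassium transporter HAK27 with 169, 375 and 543.

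Other genes of the 12 were lowest in array 3. YAB7, a YABBY factor, gave 199, 145 and 44.5, and CSTLP4 gave 1953, 1486 and 648. LOX1.1 gave 175, 106 and 49.2, and Pir7b, an esterase gene of defence, 1389, 914 and 478. PUB57, a U-box protein, gave 114, 178 and 51.5. CRSH2, a plastid enzyme of the alarmone ppGpp, was lowest in array 2, with 1360, 465 and 861, and TIP4-2 was highest in array 3. Of the 12, YAB7, KSL4, LOX1.1, PUB57 and TIP4-2 had mean signals under 200, the range in which 8.74% of genes spanned at least 1.

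**Figure D4:**
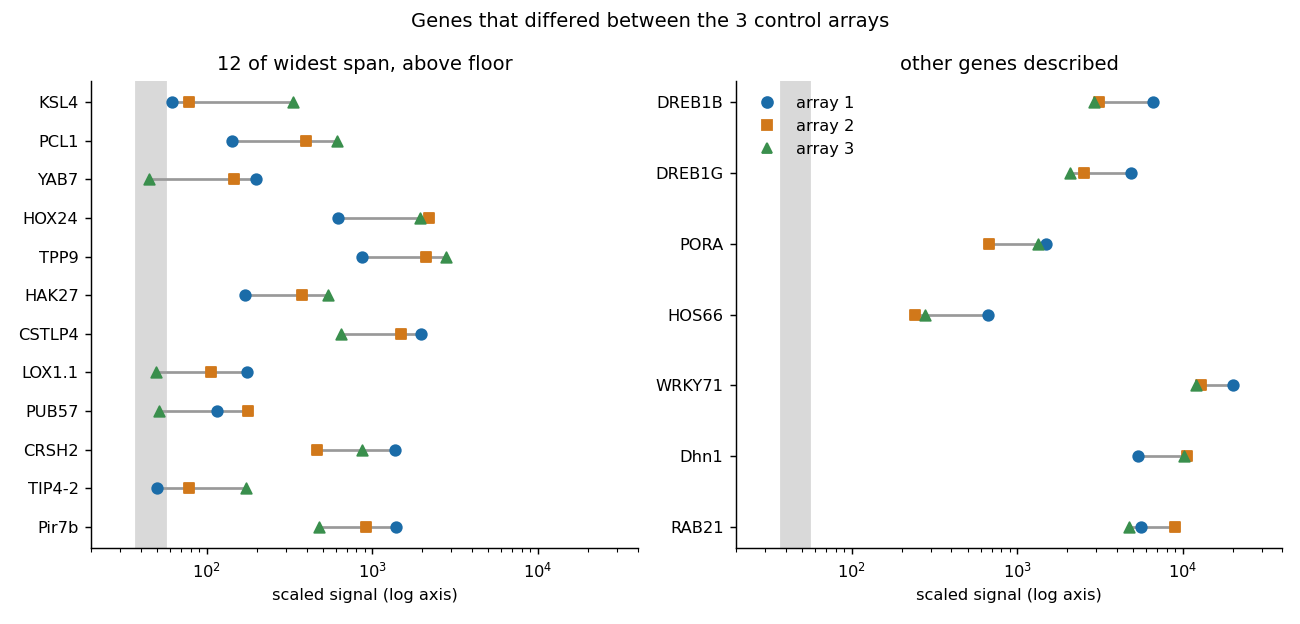
Scaled signal (log axis) in control arrays 1 (circles), 2 (squares) and 3 (triangles) for the 12 named genes of widest span among those above the floor in all arrays and for 7 further genes described in the text, with a grey band spanning the 3 floors. PCL1, HOX24, TPP9 and HAK27 are lowest in array 1, while DREB1B, DREB1G, HOS66 and WRKY71 are highest in array 1.

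The steadiest named genes above the floor were of several kinds. GLN1-2, MGD1, a galactolipid synthase of the chloroplast envelope, and OsPP2C07, a protein phosphatase, each spanned 0.01. MGD1 gave 2244, 2258 and 2262 and OsPP2C07 1049, 1044 and 1043. HIR1 gave 4913, 4886 and 4862, OsRPA32-2, a subunit of replication protein A, 1739, 1720 and 1742, and MPK16, a mitogen-activated protein kinase, 139, 138 and 141, each with a span of 0.02.

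Gene lists also shifted together between arrays, by small amounts. Of all genes above the floor, 37.9% were highest in array 1, 27.4% in array 2 and 34.8% in array 3, and the median deviation of each array from a gene's mean was within 0.01 of 0. Of the 16 chlorophyll synthesis genes above the floor, 15 were highest in array 1, with median deviations of 0.14, -0.13 and -0.02 in arrays 1, 2 and 3. Cellulose synthases were highest in array 1 in 5 of 7 genes, with 0.20 as the median deviation there. Ribosomal protein genes were highest in array 3 in 13 of 23. Genes within a list share an RNA sample, so these counts describe the arrays and carry no test.

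Dehydrin and other late-embryogenesis genes, which protect cells from drying, ran the other way. None of the 8 above the floor was highest in array 1 and 6 were highest in array 2, with median deviations of -0.23, 0.25 and 0.07. Dhn1 gave 5389, 10628 and 10223, and RAB21 gave 5616, 8986 and 4759. RAB16D was the lowest member with 50.2, 48.7 and 82.8. Histones were lowest in array 1 in 5 of 6 genes, against 4732 of all 13922 genes above the floor. Their median deviation was -0.20 there and 0.21 in array 3. HOS66, a KNOX gene named after its values were seen, went the opposite way to Dhn1, with 669, 242 and 276.

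**Figure D5:**
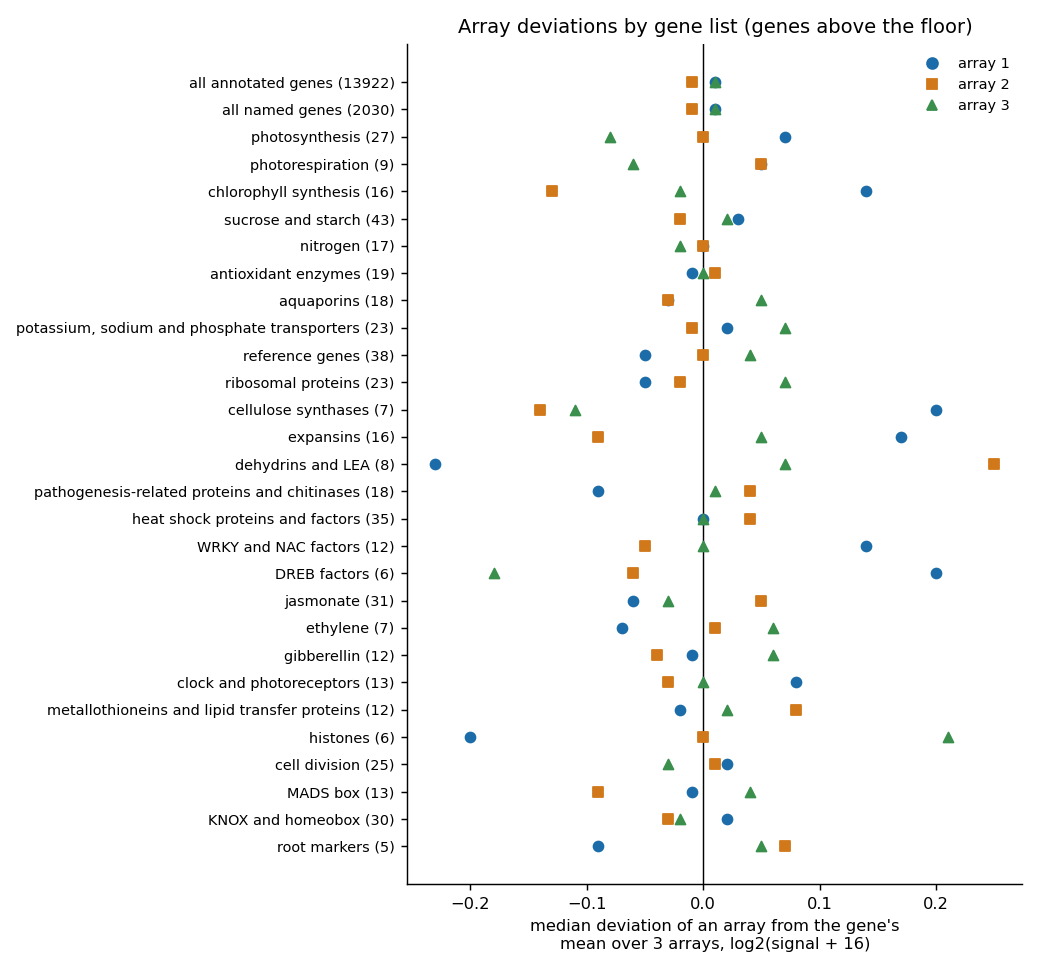
Median deviation of control arrays 1 (circles), 2 (squares) and 3 (triangles) from each gene's mean over the 3 arrays, in log2(signal + 16), for lists with at least 5 genes above the floor (number in brackets). All annotated genes lie within 0.01 of 0, while dehydrins sit at -0.23 in array 1 and 0.25 in array 2, and chlorophyll synthesis at 0.14 in array 1.

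Control probe sets moved with some of these differences. The cre spike, added before hybridization, gave 34687, 36008 and 26729. Of the 20 highest named genes, 17 were also lowest in array 3, as were 44.1% of genes with a mean signal of at least 10000. Over all 13922 genes above the floor, 4547 were lowest in array 3. The dap spike, added to the RNA, gave 7031, 6958 and 6898. The ratio of 3' to 5' signal was 2.45, 2.06 and 2.07 for GAPDH and 7.84, 6.68 and 9.02 for actin. The part of these values in the differences between arrays was not tested. Per the file headers, the 3 arrays shared 1 hybridization entry and were washed in different fluidics modules.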

How the data were processed

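The authors deposited a linear intensity for each probe set, and the submitters' processing notes name GCOS 1.2. The probe summary was not given in the sources used here. The deposited 2%-trimmed means were 113.1, 99.86 and 500.1 in arrays 1, 2 and 3, so each array was rescaled to 500. Of 57381 probe sets, 123 are control and 64 reporter probe sets. A platform annotation gave 1 gene for 22436, several for 95 and none for 34850. All 22436 were found in a RefSeq gene table of another build, used only for names. Each of the 17905 genes took its probe set of highest mean signal, and 16 was added before log2. With 1 group of 3 arrays, nothing was tested. The number of arrays limits the precision. Spans were computed with Python 3.11.15, numpy 2.4.6 and pandas 2.3.3 and tested on simulated data.

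Named by rule were the 20 highest, 10 middle, 12 most and 6 least variable named genes (of those above the floor in all arrays), the highest and lowest of each of 29 lists, all members of 10 families and the member of each family that varied most. Other list members, the families' order and the signal of 10000 were chosen after values were seen. The members and lists were chosen with earlier results of these data known, and the patterns that match names to lists were written with the annotation at hand. Alternatives were the scaling, the floor, the probe set, the constant added before log2, the span and leaving out each array.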

Additional observations from a re-analysis of the deposited data

How the results depend on the processing

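The counts of 13922 genes above the floor and 2213 at it, the 469 genes of span 1 or more and the 20 highest named genes stayed within 1.5 times their value under quantile normalization, a common median, 1 probe set of median rank and without probe sets that read several genes. The exceptions among the other settings follow. On signals as deposited, where array 3 is on another scale, 13807 genes spanned at least 1. Genes at the floor numbered 3854 with the floor at the highest reporter and 4312 with a fixed floor of 100. Genes of span 1 or more numbered 290 with a fixed floor of 100, 229 with 64 added before log2, 274 with a mean signal of at least 200 and 12 with a span of at least 2. Leaving out 1 array gave 149 to 320 such genes over 2 arrays, 14039 to 14489 genes above the floor, 2304 to 2643 at it and all 20 highest named genes. Of the 20 highest, 16 stayed with a probe set of median rank (BIPP2C1, RBCS-C, RPP13-1 and MT2C left) and 16 without probe sets reading several genes (RBCS-C, ALDP, JAZ6 and atpI left). Of the 3444 genes with several probe sets, the highest 2 were at least 10-fold apart in 27.1%. A limit for a high signal of 5000 or 20000, added after the data were seen, gave 1448 or 107 genes in place of 479. The cause of these changes was not tested beyond their construction. Background correction and probe summary could not be changed. No paired analysis was possible because only 1 group is described. With 3 arrays and no detection calls, values near the floor have no reliable order.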

Other observations

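Some probe sets without a gene name also gave strong signals, though fewer than their share of the array. Of the 100 plant probe sets of highest mean signal, 27 had no single gene in the annotation, against 34758 of all 57194 plant probe sets. Over all 34758 such plant probe sets, 21.8% were above the floor in all 3 arrays, against 73.2% of those with 1 gene. The highest annotated gene of all, LOC4352868, has no other name in the tables and averaged 45538, and LOC4334663, the gene of widest span among those above the floor in all arrays, gave 249, 64 and 567 in arrays 1, 2 and 3.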
